A study of Mus musculus with 12 samples.

Results

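The 50 genes described here encode proteins that copy DNA or carry a cell through mitosis, and their transcripts were followed in mouse cumulus cells cultured for 8 h under 3 conditions. The genes were looked up by symbol in the array's annotation and divided by their known roles into 25 genes of G1/S and replication and 25 genes of G2/M. Values were found for 49 of them, among 19938 genes measured in all. Ccnb1, which encodes cyclin B1, was not analysed here, so the G2/M genes number 24 in what follows. Each gene was read from the probe set with the highest mean over the 12 arrays. All levels and differences are on the log2 scale of the deposited values, on which a difference of 1 is a 2-fold change.

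Cumulus cells are granulosa cells that form a coat around the oocyte. They were cultured as whole cumulus-oocyte complexes, with the oocyte in place, 20 complexes to a drop of 50 µl. Female 129SV mice, 21 to 26 days of age and primed 44 h earlier with equine chorionic gonadotropin (5 IU), gave the complexes. The collection medium held 1 µM cilostamide, a phosphodiesterase inhibitor, and whether it was present during culture is not stated. The control group received 293H control medium at 0.125% by volume. The FSH/EGF group received this medium with follicle-stimulating hormone at 50 mIU/ml and epidermal growth factor at 10 ng/ml. The GDF9 group received growth differentiation factor 9, a TGF-beta family protein that oocytes secrete, at 20 ng/ml, and the labels name no control medium for it. Oocytes were pipetted off after culture, and each condition had 8 biological replicates, whose RNA was combined 2 by 2 into 4 arrays per group. The p-values therefore measure the spread between pools. In such bulk RNA, fewer cells in a phase of the cycle and less RNA per cell cannot be told apart.

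Granulosa genes marked the cells as labelled: Inha, which encodes inhibin alpha, stood between 11.14 and 11.90 over the 12 arrays, and Foxl2, a granulosa transcription factor, between 8.05 and 9.39. With FSH/EGF against control, markers of several cell types passed a limma adjusted p under 0.05. Of all genes 36.8% did so, 21.9% higher and 14.9% lower, and some lists below were near or under that share. Of 11 granulosa markers 0 rose and 7 fell, among them Fshr, the FSH receptor gene, at -3.14, and their mean level was 9.52 to 9.73 in control, 9.59 to 9.78 with GDF9 and 8.44 to 8.63 with FSH/EGF. The endothelial list had 2 rises and 0 falls among 8 genes. Cdh5, which encodes vascular cadherin, rose by 3.18 and Pecam1 differed by -0.01, and the list's mean was 4.82 to 4.95, 4.80 to 4.95 and 5.27 to 5.31. The surface epithelium list had 3 rises and 2 falls among 8 genes. Of its keratin genes, Krt8 rose by 3.02 and Krt18 by 2.72, and the list's mean was 5.60 to 5.92, 5.58 to 5.78 and 6.28 to 6.43. The counts were 0 and 3 of 9 theca and stroma markers, 1 and 0 of 8 leukocyte markers, 0 and 2 of 3 red blood cell markers, and 0 and 1 of 22 oocyte markers (Npm2, at -0.54). Their part in the results below was not tested. Levels of oocyte transcripts were uneven between arrays. The mean level of 22 oocyte markers was 4.98 to 5.13 on control arrays 1 to 3 and 5.95 on control array 4, 4.83 to 4.99 on the GDF9 arrays, and 4.85 to 5.18 on the FSH/EGF arrays, with the highest of these on FSH/EGF array 3. Padi6, an oocyte gene, read 4.49, 4.51, 4.46 and 7.05 on control arrays 1 to 4 and 4.49, 4.58, 5.61 and 4.49 on FSH/EGF arrays 1 to 4. Zp3 (6.53), Gdf9 (6.88) and Oosp1 (5.52) were likewise highest on control array 4. Counts without control array 4 and FSH/EGF array 3 are given beside the results below.

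Dividing cells load the MCM helicase onto replication origins in G1, and E2F transcription factors then drive the genes for cyclin E, the helicase and its loaders, the sliding clamp and nucleotide synthesis as S phase begins. In G2, cyclin A and cyclin B with CDK1, the polo and Aurora kinases, kinesins and the spindle checkpoint genes are induced, and the anaphase-promoting complex later destroys many of their products. Before the ovulatory signal granulosa cells of the follicle proliferate under FSH, and EGF receptor ligands relay the ovulatory signal to cumulus cells.

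G1/S and G2/M genes differ in the short sequences around their start sites, which are shown because such sequences are the textbook mark of the 2 classes. Windows of 300 bases (250 before and 50 after the start) from RefSeq, build GRCm38.p6, were matched by symbol for 40 of the 49 genes, 21 of G1/S and replication and 19 of G2/M. E2F sites were searched as TTTCCCGC, as TTTCGCGC, as TTTGGCGC and as TTTGCCGC, the CHR element of G2/M genes as TTTGAA and as TTCGAA, and the CCAAT box as CCAAT, on both strands. TTCGAA reads the same on both strands, and E2F matches can overlap one another. An E2F match was present in 9 of 21 windows of G1/S and replication genes (42.9%), in 1 of 19 of G2/M genes (5.26%) and in 2.6% of 27025 genes with a window. A CHR match was present in 4 of 21 (19.0%), 14 of 19 (73.7%) and 21.7%. A CCAAT box was present in 15 of 21 (71.4%), 15 of 19 (78.9%) and 41.1%. Ccna2, Kif20a, Tpx2, Gins2, Foxm1, Gins1, Ccne2, Aurkb and Mcm4 had no window in the table.

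**Figure D1:**
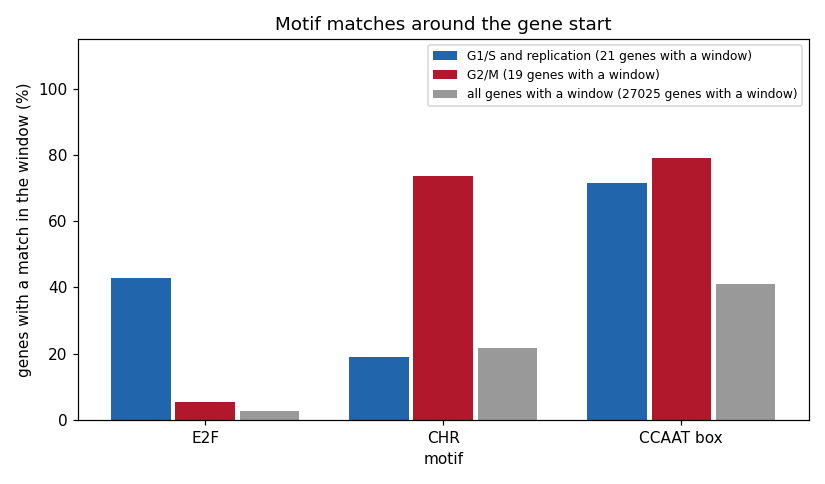
Percent of genes whose window of 300 bases around the start holds at least 1 match (vertical axis) for each of 3 motifs, in 21 G1/S and replication genes (blue), 19 G2/M genes (red) and 27025 genes with a window (grey). E2F matches stand out in the G1/S bars at 42.9%, CHR matches in the G2/M bars at 73.7%, and CCAAT boxes are above the grey bar in both.

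The 250 bases before the start follow for the largest rise and the largest fall with FSH/EGF against control in each class, among genes with a window, and for 1 gene with an E2F match and 1 with a CHR match upstream. Matches are in capitals, other bases in lower case, 5′ to 3′ on the gene's strand. Pcna (chr2:132253181-132253430, minus strand) and Mcm10 (chr2:5012792-5013041, minus strand) held no E2F match and 1 and 2 upstream CCAAT boxes, that of Pcna on the opposite strand. Mcm5 (chr8:75109259-75109508, plus strand), which fell, held 2 overlapping E2F matches, at 153 and 149 bases before the start. Cenpe (chr3:135212313-135212562, plus strand), which rose, held no CHR match, Ccnb2 (chr9:70421555-70421804, minus strand), which fell, held 1 upstream at 167 bases with 3 CCAAT boxes, and Cdc20 (chr4:118437344-118437593, minus strand), which rose, held 1 at 18 bases.
Pcna: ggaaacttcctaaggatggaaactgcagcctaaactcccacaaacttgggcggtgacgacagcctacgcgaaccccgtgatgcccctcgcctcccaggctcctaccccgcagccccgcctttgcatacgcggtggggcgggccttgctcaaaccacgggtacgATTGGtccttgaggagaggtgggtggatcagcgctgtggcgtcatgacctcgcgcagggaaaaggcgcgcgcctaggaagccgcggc
Mcm10: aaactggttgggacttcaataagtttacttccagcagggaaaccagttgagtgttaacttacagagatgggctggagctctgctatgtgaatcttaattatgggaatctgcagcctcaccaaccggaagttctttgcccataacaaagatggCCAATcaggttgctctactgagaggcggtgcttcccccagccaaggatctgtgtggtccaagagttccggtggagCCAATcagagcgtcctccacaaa
Mcm5: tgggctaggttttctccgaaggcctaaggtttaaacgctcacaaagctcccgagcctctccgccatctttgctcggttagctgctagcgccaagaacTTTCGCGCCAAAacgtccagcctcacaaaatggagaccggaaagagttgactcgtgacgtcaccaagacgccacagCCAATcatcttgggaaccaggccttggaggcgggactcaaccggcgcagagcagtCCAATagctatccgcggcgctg
Cenpe: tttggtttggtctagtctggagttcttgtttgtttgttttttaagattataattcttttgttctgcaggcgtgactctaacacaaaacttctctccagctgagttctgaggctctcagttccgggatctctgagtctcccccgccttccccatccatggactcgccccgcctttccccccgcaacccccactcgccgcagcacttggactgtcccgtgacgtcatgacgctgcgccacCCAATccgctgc
Ccnb2: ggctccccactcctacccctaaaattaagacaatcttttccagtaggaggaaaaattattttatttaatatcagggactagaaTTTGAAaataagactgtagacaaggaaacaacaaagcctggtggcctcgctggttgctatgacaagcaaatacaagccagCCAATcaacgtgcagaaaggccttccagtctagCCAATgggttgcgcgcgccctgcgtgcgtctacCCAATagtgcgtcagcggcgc
Cdc20: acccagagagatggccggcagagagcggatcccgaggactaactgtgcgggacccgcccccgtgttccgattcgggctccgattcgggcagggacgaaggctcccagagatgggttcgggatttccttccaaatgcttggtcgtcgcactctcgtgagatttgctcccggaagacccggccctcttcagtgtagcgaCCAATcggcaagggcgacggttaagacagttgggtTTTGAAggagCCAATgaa

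The matches can be set beside the direction of change with FSH/EGF. Of the G1/S and replication genes that rose with FSH/EGF, 0 of 4 with a window held an E2F match, against 3 of the 4 that fell (Mcm3, Mcm5 and Mcm7) and 6 of 13 that did not pass the threshold. Of the G2/M genes, a CHR match was present in 3 of 4 that rose, in the 1 that fell with a window, and in 10 of 14 that did not pass. These are counts of letters in a window, with no test, and are too few to compare.

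With FSH/EGF against control, the 49 genes split in both directions. At a limma adjusted p under 0.05, 12 rose and 6 fell, which is 18 of 49, or 36.7%. Over all genes 36.8% passed, 21.9% higher and 14.9% lower, so the share was near that over all genes, dim ones included. With the 40% dimmest rows left out, 19 of 47 replication and mitosis genes passed (13 rose and 6 fell), against 6787 of 13588 genes. Among G1/S and replication genes 6 rose and 4 fell of 25, with a median difference of 0.03. Among G2/M genes 6 rose and 2 fell of 24, with a median of 0.17. The median over all genes was -0.07 (0.01 without the 40% dimmest rows), and 29 of the 49 genes had a positive difference, against 39.8% of all genes. The 4 FSH/EGF arrays lay wholly above or wholly below the 4 control arrays for 20 of the 49 genes (14 above, 6 below), against 41.9% of all genes. The 20 comprised the 18 that passed the threshold and Kif23 and Ttk.

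The balance of rises and falls depended on the scaling of the arrays. When the deposited values were quantile normalized again, 4 genes rose (Pcna, Tyms, Kif20a and Tpx2) and 12 fell, and with equal array medians 15 rose and 3 fell. Over all genes, rises were 59.4% of the calls as deposited, 54.6% after renewed quantile normalization and 72.5% with equal medians. None of the 18 genes changed sign under either scaling. The medians moved too. That of the 24 G2/M genes was 0.02 after renewed quantile normalization (12 positive), 0.25 with equal medians and 0.08 without control array 1. For G1/S and replication genes these medians were 0.04, 0.10 and -0.001, and over all genes -0.04, 0.01 and -0.05. Without control array 4 and FSH/EGF array 3, on which oocyte transcripts were highest, 10 genes rose and 3 fell. Over all genes 6045 then passed in place of 7334. Without FSH/EGF array 2, 3 G1/S and replication genes rose in place of 6. Rises over all genes then numbered 3936 in place of 4357. Without control array 2 or FSH/EGF array 1, 2 or 3, 2 G1/S and replication genes fell in place of 4. Falls over all genes then numbered 2131 to 2467 in place of 2977.

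**Figure D2:**
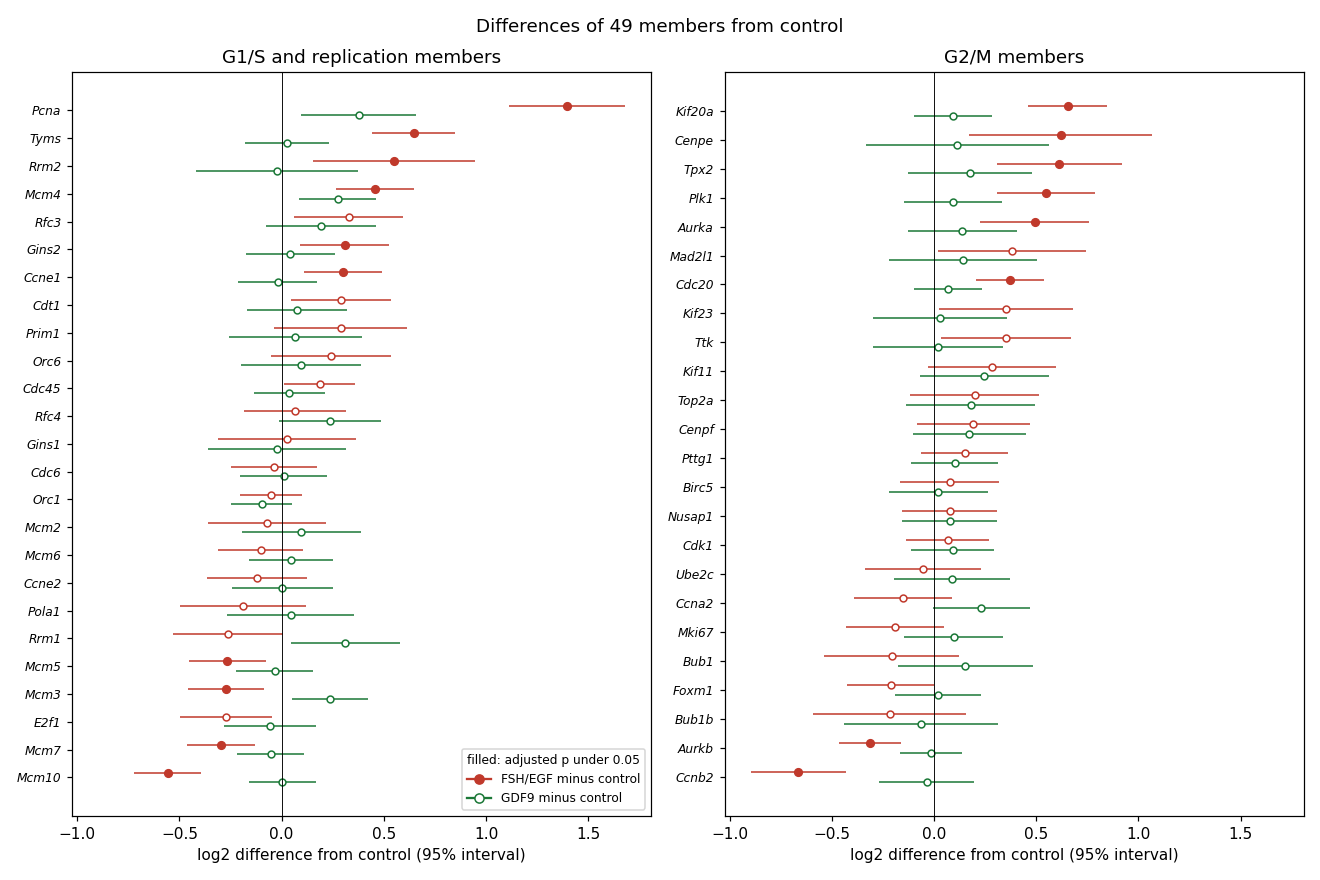
Difference from control in log2 units (horizontal axis, 95% interval from limma) of each of 25 G1/S and replication genes (left) and 24 G2/M genes (right), for FSH/EGF (red) and GDF9 (green), 4 arrays per group; filled points have an adjusted p under 0.05. FSH/EGF points run from -0.66 (Ccnb2) to 1.40 (Pcna), whereas GDF9 points run from -0.10 to 0.38 and none is filled.

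Pcna had the largest difference of the 49 genes. It encodes the sliding clamp that holds DNA polymerases on the template. Its level was 8.54, 8.66, 8.60 and 9.00 on control arrays 1 to 4, 9.40, 8.90, 9.08 and 8.92 with GDF9, and 10.25, 9.98, 9.95 and 10.20 with FSH/EGF. All 4 FSH/EGF arrays were above the other 8. The rise over control was 1.40 ± 0.13 (SE, n = 4 per group; limma adjusted p = 4.34e-06), or 2.63-fold, and a second probe set of Pcna gave 1.40 as well. The other genes of this role had no call: Rfc3 and Rfc4, which encode clamp loader subunits, differed by 0.33 ± 0.12 and 0.06 ± 0.12, Prim1, the small primase subunit, by 0.29 ± 0.15, and Pola1, the catalytic subunit of polymerase alpha, by -0.19 ± 0.14.

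Of the 3 genes of nucleotide supply 2 rose and 0 fell, where 21.9% of all genes rose and 14.9% fell. Tyms encodes thymidylate synthase, which makes the deoxynucleotide specific to DNA. It read 6.63, 6.61, 6.56 and 6.52 in control, 6.87, 6.54, 6.63 and 6.37 with GDF9, and 7.20, 7.21, 7.17 and 7.32 with FSH/EGF. The FSH/EGF arrays lay above all others, and Tyms rose by 0.65 ± 0.09 over control (limma adjusted p = 0.000209). Rrm2 encodes the ribonucleotide reductase subunit whose level follows S phase. It read 7.07, 7.31, 7.02 and 7.30 in control, 7.68, 7.10, 7.07 and 6.76 with GDF9, and 7.63, 8.00, 7.90 and 7.37 with FSH/EGF. FSH/EGF was above control on every array but overlapped the spread of the GDF9 arrays. Rrm2 rose by 0.55 ± 0.18 (adjusted p = 0.0398), and its call was lost without control array 1, 2 or 3, GDF9 array 3, or FSH/EGF array 1, 2 or 3 (differences of 0.46 to 0.59, adjusted p 0.0515 to 0.108). Rrm1, the partner subunit, did not rise with it. It read 8.57, 8.83, 8.90 and 8.68 in control, 9.17, 8.74, 9.31 and 9.00 with GDF9, and 8.62, 8.44, 8.57 and 8.30 with FSH/EGF. The FSH/EGF arrays were below every GDF9 array and overlapped control, and the difference from control was -0.26 ± 0.12 (adjusted p = 0.129).

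The replicative helicase moved both ways: 2 of its 10 genes rose and 4 fell, where 21.9% of all genes rose and 14.9% fell. Mcm10, a replication initiation factor that joins the MCM ring at origins, had the largest fall. It read 6.64, 6.84, 6.68 and 6.76 in control, 6.86, 6.62, 6.82 and 6.62 with GDF9, and 6.20, 6.12, 6.19 and 6.17 with FSH/EGF. All FSH/EGF arrays were below the other 8, and Mcm10 fell by 0.56 ± 0.08 (limma adjusted p = 0.000116). Mcm7, a subunit of the ring, read 8.88, 8.94, 8.89 and 8.99 in control, 9.00, 8.86, 8.69 and 8.94 with GDF9, and 8.61, 8.61, 8.57 and 8.75 with FSH/EGF. It fell by 0.30 ± 0.08 (adjusted p = 0.0115), and FSH/EGF lay below control on every array. Mcm3, another ring subunit, read 7.71, 7.92, 7.68 and 7.66 in control, 8.13, 8.03, 7.94 and 7.81 with GDF9, and 7.38, 7.46, 7.51 and 7.54 with FSH/EGF. It fell by 0.27 ± 0.09 (adjusted p = 0.0315), below both other groups on every array. Mcm5 read 7.74, 7.87, 7.80 and 7.80 in control, 7.89, 7.86, 7.82 and 7.51 with GDF9, and 7.43, 7.57, 7.60 and 7.55 with FSH/EGF. Its FSH/EGF arrays were below all controls, and the fall was 0.27 ± 0.09 (adjusted p = 0.0358).

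Mcm4 was the ring subunit that went the other way. It read 7.16, 7.11, 7.14 and 7.12 in control, 7.44, 7.45, 7.51 and 7.23 with GDF9, and 7.58, 7.39, 7.61 and 7.78 with FSH/EGF. Both treated groups lay above every control array and overlapped each other, and with FSH/EGF Mcm4 rose by 0.46 ± 0.09 (limma adjusted p = 0.00165). After renewed quantile normalization its difference was 0.25 and the call was lost (adjusted p = 0.0882). Gins2, a subunit of the GINS complex that activates the helicase, read 6.97, 6.67, 6.94 and 6.81 in control, 6.73, 6.79, 7.06 and 6.98 with GDF9, and 7.02, 7.21, 7.08 and 7.32 with FSH/EGF. FSH/EGF was above control on every array by a narrow margin, and Gins2 rose by 0.31 ± 0.10 (adjusted p = 0.0364). The helicase genes without a call were Mcm2 (-0.07), Mcm6 (-0.10), Cdc45 (0.19) and Gins1 (0.03).

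Some of these helicase calls lay near the threshold and were lost with fewer arrays. The call of Mcm3 was lost without control array 2 or FSH/EGF array 1, 2 or 3 (-0.28 to -0.21, adjusted p 0.0564 to 0.0918). That of Mcm5 was lost without control array 2, 3 or 4 or any 1 FSH/EGF array (-0.29 to -0.23, adjusted p 0.0526 to 0.105). That of Gins2 was lost without control array 2 or 4 or FSH/EGF array 2, 3 or 4 (0.25 to 0.34, adjusted p 0.0510 to 0.103). With equal array medians Mcm3, Mcm5 and Mcm7 no longer passed (adjusted p 0.129, 0.129 and 0.0902), and Mcm10 did.

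Of the 7 cyclin E, E2F and origin licensing genes 1 rose, where 21.9% of all genes rose. Ccne1, which encodes cyclin E1, the partner of CDK2 at the start of S phase, read 6.35, 6.32, 6.17 and 6.40 in control, 6.07, 6.39, 6.40 and 6.29 with GDF9, and 6.59, 6.74, 6.60 and 6.52 with FSH/EGF. FSH/EGF was above the other 8 arrays, and Ccne1 rose by 0.30 ± 0.09 (limma adjusted p = 0.0223). The call was lost without control array 3 or FSH/EGF array 2 (0.25 and 0.26, adjusted p 0.0701 and 0.0670). Ccne2, cyclin E2, and E2f1, an activating E2F, differed by -0.12 ± 0.11 and -0.27 ± 0.10 without a call. The 4 origin licensing genes had none either: Cdt1 differed by 0.29 ± 0.11, Orc6 by 0.24 ± 0.14, Cdc6 by -0.04 ± 0.10 and Orc1 by -0.05 ± 0.07. Orc1 and Ccne2 were among the 40% dimmest probe sets.

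**Figure D3:**
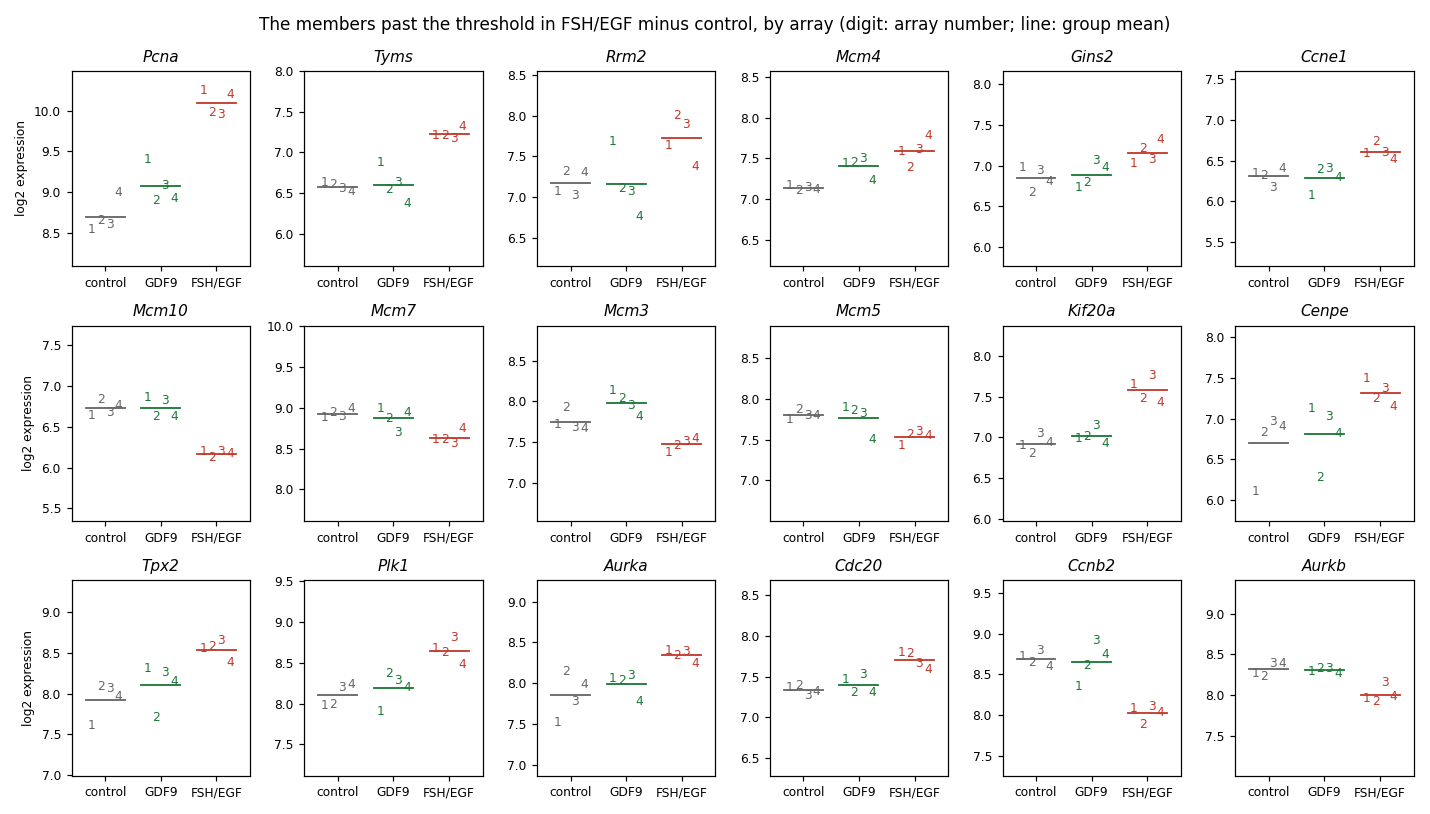
Log2 level (vertical axis, the same span in every panel) of the 18 genes past the threshold in FSH/EGF against control, with each array as its number and the group mean as a line, in control (grey), GDF9 (green) and FSH/EGF (red). Pcna stands at 9.95 to 10.25 with FSH/EGF against 8.54 to 9.00 in control, Ccnb2 at 7.89 to 8.10 against 8.60 to 8.79, and control array 1 is apart for Cenpe at 6.10.

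Of the 5 kinesin and spindle genes in the G2/M class 2 rose and 0 fell, or 40% with a call, near the 36.8% of all genes. Kif20a, a kinesin of the late spindle and cytokinesis, read 6.90, 6.80, 7.05 and 6.93 in control, 6.99, 7.02, 7.14 and 6.92 with GDF9, and 7.65, 7.48, 7.75 and 7.42 with FSH/EGF. All FSH/EGF arrays were above the rest, and Kif20a rose by 0.65 ± 0.09 (limma adjusted p = 0.000111). Tpx2, a spindle assembly factor that activates Aurora A, read 7.61, 8.09, 8.06 and 7.96 in control, 8.30, 7.70, 8.26 and 8.15 with GDF9, and 8.55, 8.59, 8.65 and 8.38 with FSH/EGF. It rose by 0.61 ± 0.14 (adjusted p = 0.00552), with control array 1 and GDF9 array 2 lowest in their groups. The other spindle genes, Kif11 (0.28), Kif23 (0.35) and Nusap1 (0.08), had no call, although every FSH/EGF value of Kif23, at 7.81 to 7.87, exceeded every control value, at 7.01 to 7.80.

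Of the mitotic kinases, Aurora A and Aurora B went opposite ways. Aurka, which acts at centrosomes, read 7.51, 8.14, 7.77 and 7.98 in control, 8.06, 8.03, 8.09 and 7.78 with GDF9, and 8.40, 8.34, 8.39 and 8.24 with FSH/EGF. It rose by 0.49 ± 0.12 (limma adjusted p = 0.00899), with all FSH/EGF arrays above the other 8. Aurkb, the kinase of the chromosomal passenger complex, read 8.27, 8.23, 8.39 and 8.39 in control, 8.30, 8.33, 8.32 and 8.27 with GDF9, and 7.96, 7.92, 8.15 and 7.99 with FSH/EGF. It fell by 0.31 ± 0.07 (adjusted p = 0.00443), with all FSH/EGF arrays below the other 8. Plk1, the polo kinase of mitotic entry, read 7.98, 7.99, 8.20 and 8.23 in control, 7.91, 8.37, 8.29 and 8.19 with GDF9, and 8.68, 8.62, 8.81 and 8.48 with FSH/EGF. It was above both other groups on every array and rose by 0.55 ± 0.11 (adjusted p = 0.00238). Birc5, which encodes survivin, a partner of Aurora B, differed by 0.08 ± 0.11.

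Ccnb2, cyclin B2, had the largest fall of the 49 genes. It read 8.71, 8.65, 8.79 and 8.60 in control, 8.35, 8.61, 8.91 and 8.74 with GDF9, and 8.08, 7.89, 8.10 and 8.03 with FSH/EGF. No FSH/EGF array reached the lowest of the other 8, and the fall was 0.66 ± 0.11 (limma adjusted p = 0.000469), which makes control 1.58-fold higher. Cdk1, the kinase that cyclin B2 activates, differed by 0.07 ± 0.09, and Ccna2, cyclin A2, by -0.15 ± 0.11, neither with a call.

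The genes of mitotic exit and of the centromere gave 1 rise each, or 33.3% and 25% with a call, against 36.8% of all genes. Cdc20, the activator of the anaphase-promoting complex, read 7.37, 7.39, 7.26 and 7.32 in control, 7.47, 7.31, 7.53 and 7.31 with GDF9, and 7.79, 7.78, 7.67 and 7.59 with FSH/EGF. It rose by 0.37 ± 0.08 (limma adjusted p = 0.00271), with FSH/EGF above the other 8 arrays. Ube2c, an E2 enzyme of that complex, and Pttg1, securin, differed by -0.05 ± 0.13 and 0.15 ± 0.10. Cenpe, a kinetochore motor, read 6.10, 6.83, 6.96 and 6.90 in control, 7.13, 6.28, 7.03 and 6.81 with GDF9, and 7.49, 7.25, 7.37 and 7.15 with FSH/EGF. Control array 1 and GDF9 array 2 were far below their groups, and Cenpe rose by 0.62 ± 0.21 (adjusted p = 0.0402). Its call was lost without control array 1 (0.42, adjusted p = 0.0902), and also without control array 2, GDF9 array 4 or any 1 FSH/EGF array, at differences of up to 0.67. Cenpf (0.19), Top2a (0.20, and -0.10 on a second, much dimmer probe set) and Mki67 (-0.19) had no call. The spindle checkpoint genes had none either: Mad2l1 differed by 0.38 ± 0.17, Ttk by 0.35 ± 0.15, Bub1 by -0.21 ± 0.15 and Bub1b by -0.22 ± 0.17. Foxm1, a transcription factor of G2/M genes, differed by -0.21 ± 0.10.

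Renewed quantile normalization ended the calls of Aurka (0.27), Plk1 (0.33), Cdc20 (0.16), Cenpe (0.47), Rrm2 (0.34), Gins2 (0.14) and Ccne1 (0.24), besides that of Mcm4, with no change of sign. Under all 25 alternative settings 7 of the 18 genes passed: Pcna, Tyms, Kif20a and Tpx2 upward, Mcm10, Ccnb2 and Aurkb downward.

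With GDF9 against control no gene of the 49 passed the threshold, and 0% of all genes did. The lowest limma adjusted p among the 49 was 0.971, and 4 of them (Mcm3, Mcm4, Pcna and Rrm1) had an unadjusted p under 0.05, all with higher values under GDF9. That is 8.16% of the 49, against 4.95% of all genes. The 95% intervals of the 49 differences reached no lower than -0.44 and no higher than 0.66. The largest differences among G1/S and replication genes were Pcna at 0.38 ± 0.13, Rrm1 at 0.31 ± 0.12 and Mcm4 at 0.27 ± 0.09. Mcm4 was the 1 gene of the 49 whose GDF9 arrays did not overlap control, against 2.32% of all genes. Among G2/M genes the largest were Kif11, a bipolar spindle kinesin, at 0.25 ± 0.15, Ccna2 at 0.23 ± 0.11 and Top2a, topoisomerase II alpha, at 0.18 ± 0.15. Kif11 read 6.47, 7.03, 6.84 and 7.03 in control and 7.37, 6.89, 7.12 and 6.96 with GDF9. Top2a read 8.48, 8.92, 8.94 and 8.97 in control and 9.06, 8.73, 9.24 and 9.00 with GDF9. In both, control array 1 was the lowest of the 8 and the groups overlapped otherwise. A second, much dimmer probe set of Top2a (mean 3.68) gave -0.13 ± 0.11.

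Most differences under GDF9 were small and positive. The difference was positive for 39 of the 49 genes (18 of 25 and 21 of 24), with medians of 0.04 and 0.09, against 43.7% and -0.02 over all genes. Dim genes lowered the all-gene median: without the 40% dimmest rows it was 0.01. The size of this lean varied with the arrays and the scaling. Without control array 1 the difference was positive for 29 genes (14 and 15), with medians of 0.01 and 0.02. Without control array 3 it was positive for 13 of the 25 G1/S and replication genes, with a median of 0.01, and for 21 of the 24 G2/M genes. Without GDF9 array 3 the median over the 49 genes was 0.03 in place of 0.08. Without control array 4 and FSH/EGF array 3, 43 of the 49 were positive, with a median of 0.10. With equal array medians 45 were positive. Genes on the same arrays are not independent, and these counts carry no test.

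FSH/EGF against GDF9 uses the same FSH/EGF arrays as the comparison with control, so that the values are given side by side only. Of the 49 genes 8 were higher and 7 lower with FSH/EGF at a limma adjusted p under 0.05, which is 30.6%, against 29.1% of all genes, 18.6% higher and 10.5% lower. With the 40% dimmest rows left out, 16 of 47 passed, against 5578 of 13588 genes. Arrays did not overlap for 20 genes, against 33.7% of all genes. The higher genes were Pcna (1.02 ± 0.13), Tyms (0.62 ± 0.09), Rrm2 (0.57 ± 0.18), Ccne1 (0.32 ± 0.09), Kif20a (0.56 ± 0.09), Plk1 (0.46 ± 0.11), Tpx2 (0.44 ± 0.14) and Cdc20 (0.30 ± 0.08). The lower genes were Rrm1 (-0.57 ± 0.12), Mcm10 (-0.56 ± 0.08), Mcm3 (-0.51 ± 0.09), Mcm7 (-0.24 ± 0.08), Ccnb2 (-0.63 ± 0.11), Ccna2 (-0.38 ± 0.11) and Aurkb (-0.30 ± 0.07). After renewed quantile normalization 3 were higher and 12 lower, and over all genes 3110 and 2414 in place of 3711 and 2093. Without control array 4 and FSH/EGF array 3 the counts were 5 and 6, and over all genes 4938 passed in place of 5804. Without FSH/EGF array 2, 2 G1/S and replication genes were higher in place of 4, and over all genes 3311 in place of 3711.

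Of the genes past the threshold, 13 passed in both comparisons in the same direction, 5 passed against control alone and 2 against GDF9 alone. The 5 were Mcm4, Mcm5, Gins2, Aurka and Cenpe, whose differences from GDF9 were 0.18, -0.23, 0.27, 0.35 and 0.50 (limma adjusted p 0.171, 0.0757, 0.0802, 0.0565 and 0.107). The 2 were Rrm1 and Ccna2. Ccna2 read 8.13, 8.34, 8.32 and 8.16 in control, 8.42, 8.32, 8.75 and 8.39 with GDF9, and 8.13, 8.20, 8.17 and 7.84 with FSH/EGF. FSH/EGF overlapped control and lay below every GDF9 array. The 2 differences of a gene are set apart by its difference between GDF9 and control, which passed the threshold for none of these genes. For Mcm5 it was only -0.03. The calls also depend on the adjustment, made within each comparison. Rrm2 had a limma p of 0.0107 against control (adjusted p = 0.0398) and 0.0086 against GDF9 (adjusted p = 0.0404). Under all 25 alternatives 8 of the 15 genes passed against GDF9: Pcna, Tyms and Kif20a upward, Mcm10, Mcm3, Rrm1, Ccnb2 and Aurkb downward.

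Several calls against GDF9 also lay near the threshold. Ccna2 was lost without GDF9 array 3 or FSH/EGF array 4 (-0.29 and -0.30, limma adjusted p 0.0650 and 0.0703), and Ccne1 without FSH/EGF array 2 (0.28, adjusted p = 0.0611). Mcm7 was lost without control array 2 or 3, GDF9 array 1, 2 or 4, or FSH/EGF array 1, 2 or 3 (-0.24 to -0.20, adjusted p 0.0524 to 0.107). Rrm2 was lost without control array 2 or 3, GDF9 array 2, 3 or 4, or FSH/EGF array 1, 2 or 3 (0.44 to 0.60, adjusted p up to 0.116). Tpx2 was lost without control array 4, GDF9 array 2 or 4, or FSH/EGF array 1, 2 or 3 (0.30 to 0.45, adjusted p 0.0519 to 0.106). In the other direction Mcm5 passed without GDF9 array 4 (-0.32, adjusted p = 0.00610) and Aurka without control array 1 or 2 (0.35, adjusted p 0.0157 and 0.0340).

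G2/M transcripts shifted together from array to array within each group, by more than the group means (7.56 in control, 7.65 with GDF9, 7.70 with FSH/EGF) differed. The mean level of the 24 G2/M genes was 7.32, 7.61, 7.63 and 7.67 on control arrays 1 to 4, 7.67, 7.52, 7.79 and 7.65 on the GDF9 arrays, and 7.73, 7.70, 7.79 and 7.58 on the FSH/EGF arrays. Control array 1 was the lowest of all 12, and FSH/EGF array 4 was below 3 of the 4 control arrays. Control array 1 was the lowest control for 16 of the 24 genes (66.7%), against 32.9% of all genes, with a median of 0.40 below that of the other 3. FSH/EGF array 4 was the lowest of its group for 19 of the 24 (79.2%), against 27.8% of all genes, with a median of 0.20 below. GDF9 array 2 was the lowest for 14 of 24 and GDF9 array 3 the highest for 12. G1/S and replication genes showed less of this: their mean was 6.80, 6.92, 6.80 and 6.92 in control, 7.04, 6.90, 6.98 and 6.83 with GDF9, and 6.94, 6.99, 6.95 and 6.97 with FSH/EGF. Every FSH/EGF array exceeded the highest control array in this mean, to which Pcna, at a rise of 1.40, contributed most. The class as a whole was not shifted by as much: the median difference of its 25 genes was 0.03, and 13 were positive. What sets these arrays apart was not tested.

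**Figure D4:**
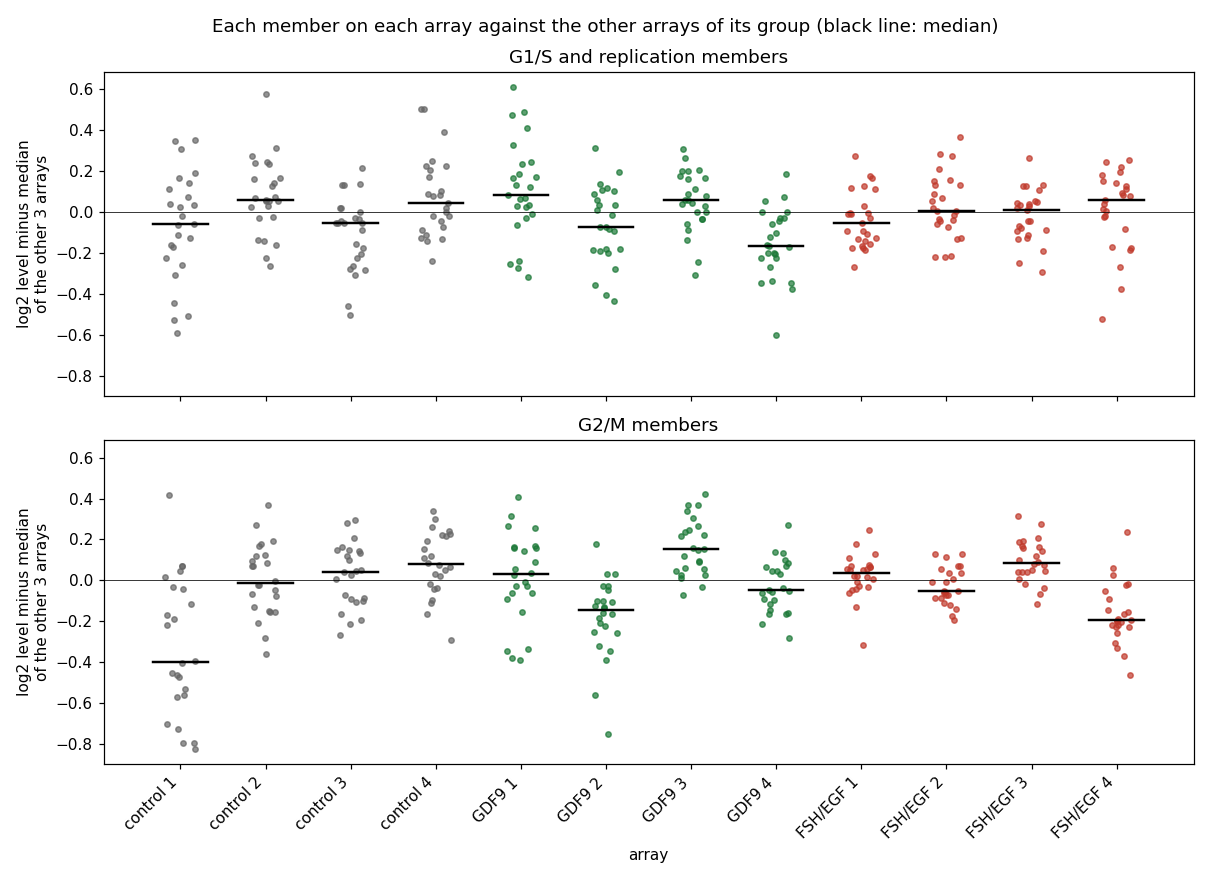
Level of each gene on each array minus the median of the other 3 arrays of its group, in log2 units (vertical axis), for 25 G1/S and replication genes (top) and 24 G2/M genes (bottom); the black line is the median over genes. In the lower panel the line is at -0.40 on control array 1 and at -0.20 on FSH/EGF array 4, while in the upper panel it is at -0.06 and 0.06.

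The number of G2/M genes past the threshold changed when control array 1 was left out. Limma gave it a weight of 0.269 when arrays were weighted. Without it, 5 G2/M genes rose and 5 fell with FSH/EGF against control, in place of 6 and 2. Over all genes 6834 passed in place of 7334, with 2677 falls in place of 2977. The G2/M genes that then fell besides Ccnb2 and Aurkb were Bub1 (-0.39, adjusted p = 0.00900), a checkpoint kinase, Bub1b (-0.42, adjusted p = 0.00955), a checkpoint protein, and Mki67 (-0.30, adjusted p = 0.0307), the source of the Ki-67 antigen. Bub1 read 6.78 on control array 1 and 7.42 to 7.57 on the other controls, against 6.95 to 7.22 with FSH/EGF. Without control array 1, all its FSH/EGF values were thus below all its control values. Against GDF9, where control array 1 enters only through the shared estimate of spread, 8 G2/M genes were then higher and 5 lower in place of 4 and 3, with Aurka, Cenpe (0.50, adjusted p = 0.0338), Ttk (0.33) and Kif23 (0.33) added to the higher and Bub1 (-0.36) and Mki67 (-0.29) to the lower. Calls over all genes increased as well, from 5804 to 6529. Control array 1 was singled out as the lowest control for 16 of these 24 genes. Leaving it out therefore raises their control mean by construction, and the added falls are no separate support. Without FSH/EGF array 4, the lowest of its group for 19 of the 24, 5 G2/M genes rose and 2 fell against control. Over all genes 4035 rose and 2322 fell in that setting.

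Other genes of the same machinery were taken from lists chosen by function. Of 43 further replication genes 14 rose and 6 fell with FSH/EGF against control, or 46.5% against 36.8% of all genes, with a median of 0.08. Pold4, a small subunit of polymerase delta, rose by 1.72 ± 0.11 (limma adjusted p = 1.61e-07), Asf1b, a histone chaperone, by 0.96 ± 0.12, Pole2, a subunit of polymerase epsilon, by 0.92 ± 0.09, and Orc4, an origin recognition subunit, by 0.62 ± 0.10. Chaf1b, a subunit of the chromatin assembly factor at the fork, fell by 0.70 ± 0.09, Wdhd1 by 0.44 ± 0.12, Rfc5, a clamp loader subunit, by 0.34 ± 0.07, and Timeless, a fork protection protein, by 0.33 ± 0.09. Of 50 further mitosis genes 17 rose and 2 fell, or 38.0% against the same 36.8%. Their median was 0.23, and 38 of the 50 differences were positive (76.0%), against 39.8% over all genes. Control array 1 weighed on this lean. The mean of these 50 genes was 6.65 on it, 6.95 to 7.05 on the other control arrays and 7.06 to 7.19 with FSH/EGF. The all-gene shares include dim genes: without the 40% dimmest rows the median over all genes was 0.01, and 6787 of 13588 passed. Cks2 and Cks1b, small partners of cyclin-dependent kinases, rose by 1.34 ± 0.16 and 0.80 ± 0.10, Mastl, the Greatwall kinase, by 1.21 ± 0.15, and Prc1, a cytokinesis factor, by 0.86 ± 0.16. Spc24, a kinetochore subunit, fell by 0.44 ± 0.09, and Ncapd2, a condensin subunit, by 0.41 ± 0.08. With FSH/EGF against GDF9 the counts were 9 higher and 10 lower of 43 and 9 higher and 4 lower of 50, where 29.1% of all genes passed. With GDF9 against control 0 passed in either list, and 4 of 43 and 3 of 50 had an unadjusted p under 0.05 (9.30% and 6%, against 4.95% of all genes).

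Larger differences lay among genes that admit or hold back the cycle. Of 33 such genes 12 rose and 5 fell with FSH/EGF against control, or 51.5% against 36.8% of all genes, with a median of 0.15. With the 40% dimmest rows left out, 6787 of 13588 genes passed. Myc, a transcription factor of growth, read 9.24, 9.57, 9.67 and 9.79 in control, 9.41, 9.35, 9.51 and 10.12 with GDF9, and 6.42, 6.76, 6.72 and 7.33 with FSH/EGF. It fell by 2.76 ± 0.21 (limma adjusted p = 5.56e-07), and no FSH/EGF array came near the other groups. Ccnd2, cyclin D2, the G1 cyclin of granulosa cells, read 11.09, 11.14, 11.23 and 11.06 in control, 11.36, 11.48, 11.33 and 11.06 with GDF9, and 9.10, 9.23, 9.24 and 9.29 with FSH/EGF. It fell by 1.92 ± 0.09, and Cdk6, a kinase that D-type cyclins activate, fell by 1.31 ± 0.10. E2f6, a repressing E2F, fell by 0.95 ± 0.14. On the other side Cdkn2d, an inhibitor of CDK4 and CDK6, rose by 1.06 ± 0.07, Lin54, the DNA-binding subunit of the complex that reads CHR elements, by 1.04 ± 0.12, E2f8, a repressing E2F, by 0.87 ± 0.12, and Ccnd3, cyclin D3, by 0.80 ± 0.08. With FSH/EGF against GDF9, 9 of the 33 were higher and 6 lower, or 45.5% against 29.1% of all genes. With GDF9 against control 0 passed, and 3 had an unadjusted p under 0.05 (9.09%, against 4.95% of all genes).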

How the data were processed

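Expression of mouse cumulus cells was measured on 12 arrays, 4 per culture condition, each of RNA pooled from 2 biological replicates. The authors deposited normalized values on a log2 scale in 35399 rows, and the submitters' processing notes list GCOS, RMA and Partek but not what each did; the genome build of the array is not given in the sources used here. In the platform annotation 21789 rows had 1 symbol (21698 of them also found in the mouse gene table by Entrez identifier), 1621 had several, and 11989 were absent and were tested unnamed. Array medians were 5.41 to 5.53. Arrays give no read depth, and their number limits the precision.

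Groups were compared with limma 3.58.1 in R 4.3.3 (1 mean per group over 12 arrays, moderated variances, Benjamini-Hochberg adjustment over all rows, threshold 0.05), a procedure tested on simulated data. Counts over all genes use 1 probe set per gene, the brightest. The genes, their division, the other lists and the alternatives were chosen with earlier results of these data known, and support nothing by themselves. Values are given array by array for the genes past the threshold against control, for the 3 largest GDF9 differences in each class and for genes whose call differed between the FSH/EGF comparisons. From each further list up to 4 rises and 4 falls are named. The 25 alternatives were other variance moderation, the 2 groups alone, array weights, removal of the 40% dimmest rows, other scaling, rows with 1 symbol, the mean over probe sets, a replicate block, doubted arrays left out, and each array left out in turn.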

Additional observations from a re-analysis of the deposited data

Results flagged for a closer look

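Within each group of 4 arrays, each of the 49 genes was checked for an array far from the other 3 (Dixon's test at its 95% critical value). Of 147 such groups 11 had one, or 7.48%, where chance gives about 1 in 20. In each case the array was lower than the others. Control array 1 was low for 5 genes: Top2a at 8.48 (others 8.92 to 8.97), Mki67 at 8.27 (others 8.67 to 8.74), Cenpe at 6.10 (others 6.83 to 6.96), Orc6, an origin recognition subunit, at 5.99 (others 6.55 to 6.63), and Pola1 at 5.61 (others 6.10 to 6.16). FSH/EGF array 4 was low for 3 G2/M genes: Top2a at 8.68 (others 9.11 to 9.18), Cenpf at 6.87 (others 7.08 to 7.12) and Pttg1 at 7.22 (others 7.37 to 7.39). The remaining 3 were Mcm2 at 7.54 on GDF9 array 4 (others 8.11 to 8.22), Rfc3 at 6.66 on GDF9 array 2 (others up to 7.03) and E2f1 at 6.09 on FSH/EGF array 2 (others 6.30 to 6.33).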

How the results depend on the processing

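Across 25 alternatives, the 46 differences described array by array kept their side of the threshold and their direction in 1027 of 1150 combinations, lost a call in 105 and gained one in 18, and 0 turned sign with a call. With GDF9 against control 0 of the 49 genes passed under all 25. Counts moved by over 1.5 times as follows. Renewed quantile normalization gave, against control, 2 G1/S and replication genes higher, 2 G2/M genes higher and 6 lower. Against GDF9 it gave 2 G1/S and replication genes higher, 1 G2/M gene higher and 6 lower. All-gene rises and falls were then 3469 and 2884 against control (4357 and 2977 as deposited). Against GDF9 they were 3110 and 2414 (3711 and 2093 as deposited). Array weights gave 5 G2/M genes lower against control and 8 higher and 5 lower against GDF9, and calls over all genes increased to 8899 and 7021. Equal medians left 1 G1/S and replication gene lower against control, and 1832 of all genes. Without control arrays 1 and 4, 2 G1/S and replication genes and 4 G2/M genes were lower against control, and 2267 of all genes. Against GDF9, 8 G2/M genes were then higher and 5 lower, and 4035 and 2349 of all genes. Without control array 4 and FSH/EGF array 3, 1 G1/S and replication gene was lower against control and 2 were higher against GDF9. Of all genes 2134 were then lower against control and 3259 higher against GDF9. The replicate number as a block left 2 G1/S and replication genes lower against control, and 2658 of all genes. It ended the calls of Mcm3, Mcm5, Rrm2, Gins2 and Cenpe (limma adjusted p 0.0514, 0.0523, 0.0522, 0.0529 and 0.0649). Against GDF9 it ended those of Rrm2 and Tpx2 (0.0544 and 0.0692). The labels give no basis for pairing, and deviations of same-numbered arrays correlated between -0.389 and 0.221, with 6 of 12 pairs over 0.1; an array correlated best with its own number in 9 of 24 combinations.

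With each array left out in turn, G1/S and replication genes higher against control numbered 3 to 7 and lower 2 to 4; G2/M genes higher 5 to 8 and lower 2 to 5. Against GDF9 they numbered 2 to 4 and 3 to 5, and 3 to 8 and 2 to 5. Calls over all genes numbered 5980 to 7647 against control and 4974 to 6529 against GDF9. Without control array 1, 5 G2/M genes were lower against control, and 8 were higher and 5 lower against GDF9. The causes were not tested. With 4 arrays of pooled RNA per group, a difference that missed the threshold is not shown to be absent.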
